A study of Mus musculus with 16 samples.

Results

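C>A and G>T changes are the alleles of the mouse mitochondrial genome at which a reference C was read as A or a reference G was read as T. Every such allele was taken, which gave 3976 C>A and 2013 G>T alleles, 5989 of the 48897 alleles in all, and no measured value entered the choice. The changes were read in 16 bulk ATAC-seq libraries of cells sorted from the femurs of mice aged 3 months, which carried the D257A change of PolG on both alleles. There were 8 sorted subsets, each with replicates 1 and 2: Thy, Thy_6C3, 6C3, CD24_CD29, CD24, CD29, CD105, and CD45. All 16 libraries carried the same PolG genotype, and no library of another genotype was analysed here. The labels do not give the gates of the sort, the number of mice, or whether mice were pooled. A p-value here therefore sets a difference against the variation from library to library and not against variation known to lie between mice. The tables hold mitochondrial base counts alone, so the labelled cell types were not checked against markers.

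PolG copies mitochondrial DNA, and its exonuclease removes wrongly paired bases as it goes; the D257A change takes away this proofreading. Guanine is the base most easily oxidised, and its oxidised form, 8-oxoguanine, can pair with adenine when the strand is copied. The outcome is read as G>T where the reference strand held the guanine and as C>A where the other strand held it. The lesion can form in living mitochondria and also in DNA during extraction and library preparation. The counts carry no read orientation, so a change made in the cells and a change made during preparation cannot be told apart here.

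The 25 members with the highest mean fraction over all libraries included 11 within 60 bases of the control region, the non-coding stretch that starts replication and transcription, at MT:16111-16170 of GRCm38. A further 7 lay within 63 bases at MT:5146-5208, which run from the asparagine transfer RNA gene TrnN across a spacer into the cysteine transfer RNA gene TrnC. The light-strand origin of replication is known to lie between these genes. Both stretches are shown because they carried the most uneven part of the signal. Their bounds were drawn around runs of these high members. Capitals mark the bases of those 18 members, and the sequence is the reference base of the deposited coverage table.
Control region stretch: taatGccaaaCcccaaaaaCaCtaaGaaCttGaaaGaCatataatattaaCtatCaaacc
TrnN and TrnC stretch: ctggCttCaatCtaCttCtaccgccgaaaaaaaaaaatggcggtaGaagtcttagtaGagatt

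A further set of alleles is shown because their fractions parted the replicate numbers or, for C3455A, had the smallest edgeR p between subsets, which did not pass after adjustment. Each is given with 10 bases on either side, and the capital marks the changed base.
C954A in the 12S ribosomal RNA gene mt-Rnr1, MT:944-964: taattaatttCtagacatccg
C4279A in ND2, MT:4269-4289: ctcaagggatCccactgcaca
C8106A in ATP6, MT:8096-8116: taatgctaatCcacacaccaa
C3455A in ND1, MT:3445-3465: ttctaataaaCgccctaacaa

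Coverage averaged 6569 to 77252 counts per position, with a median over libraries of 22071, and no position in any library was covered by fewer than 2391 counts. At the mean coverage, a count of 0 allowed a level of up to 4.57 per 10000 in the shallowest library, at 3 counts. In the deepest library it allowed up to 0.388 per 10000. These limits cover counting error only, since the deposited counts are not given by molecular identifier. Thy replicate 2 stood apart from the other 15 libraries in most changes. Its level over that of Thy replicate 1 was 1.73 for G>T and 1.70 for C>A, against 6.98 for T>G, 6.92 for A>C, 1.04 for C>T and 0.967 for G>A. Tests of the level between subsets are given with and without this library. Means, SDs and ratios over the 16 libraries include it.

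The level of a change in a library was the mean, over all positions with that reference base, of the non-reference count divided by the coverage, given per 10000 covering counts. The G>T level was 56.8 in Thy replicate 2 and ran from 25.4 to 35.0 in the other 15 libraries, with a median of 29.3. The C>A level was 54.9 in Thy replicate 2 and ran from 25.4 to 34.7 in the other 15, with a median of 29.1. C>A and G>T held 18.4% of all non-reference counts in Thy replicate 2 and 20.3% to 27.4% in the other libraries.

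The combined level, the mean of the G>T and C>A levels, was 55.8 and 32.5 per 10000 in replicates 2 and 1 of Thy cells. CD24_CD29 cells had 33.2 and 34.9, and Thy_6C3 cells 33.0 and 32.8. Thy cells were the highest in replicate 2 and came after CD24_CD29 and Thy_6C3 cells in replicate 1. These subsets stood above the rest in both replicates. CD45 cells, named for a surface protein of blood cells, had 28.2 and 30.04, CD29 cells 28.0 and 29.2, and CD105 cells 26.7 and 29.6. The lowest levels were in 6C3 cells at 27.7 and 26.6 and in CD24 cells at 25.4 and 27.0. In the order of the subset means, which runs Thy, CD24_CD29, Thy_6C3, CD45, CD29, CD105, 6C3 and CD24, the replicates of neighbours overlapped except between CD24_CD29 and Thy_6C3 and between Thy_6C3 and CD45.

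**Figure D1:**
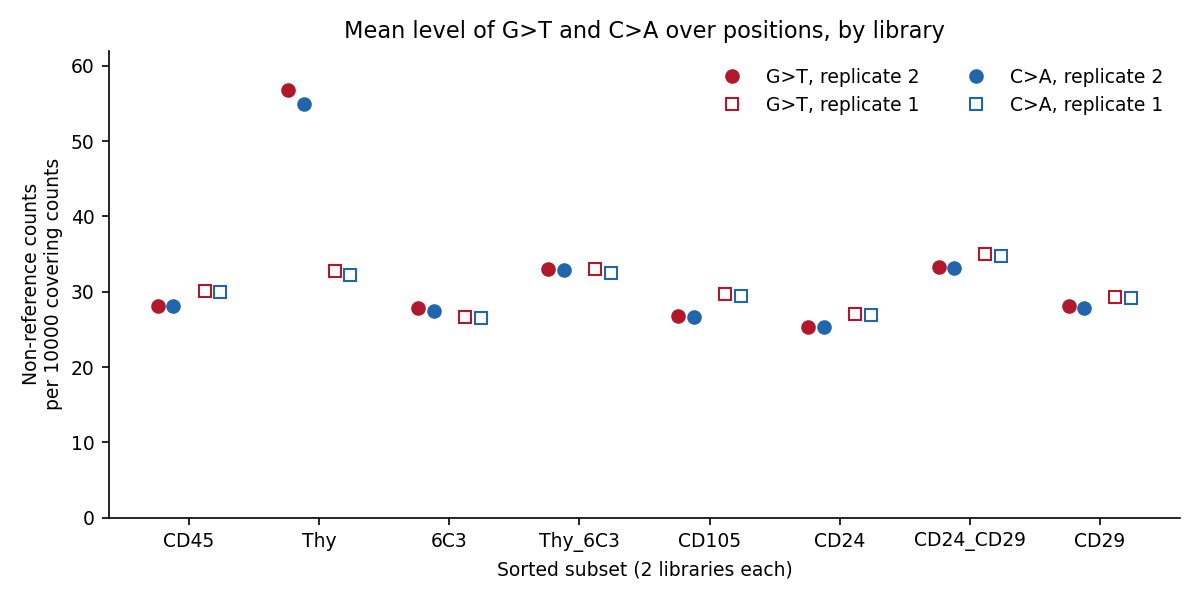
Mean level of G>T (red) and C>A (blue) over positions, in non-reference counts per 10000 covering counts, in each of the 16 libraries; filled circles are replicate 2 and open squares replicate 1. Thy replicate 2 stands at 56.8 and 54.9, above all other libraries, and the G>T and C>A points of each library lie close together.

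The share of the variance of the log2 level that lay between subsets was 69.6% for G>T and 69.3% for C>A. Set against every other pairing of the 16 libraries in an exact one-sided permutation test, this gave p = 0.0236 and 0.0297, and 0.0567 and 0.0595 after Benjamini-Hochberg adjustment over the 12 base changes, so neither passed the threshold of 0.05, against 33.3% of the 12 changes that did. The result depended on the Thy pair. When 1 Thy library was left out, the other formed a subset of its own, so its whole distance from the rest counted as between subsets and the spread came from the other 7 subsets. Without Thy replicate 2 alone, the adjusted p was 0.0103 for each change, and without Thy replicate 1 alone it was 0.001, with 66.7% and 91.7% of the 12 changes past the threshold. Without any other single library neither change passed, nor did more than 8.33% of the 12. For C>A and G>T these tests could hardly pass. Any library could be the unpaired one, and pairings that left Thy replicate 2 unpaired removed its distance from Thy replicate 1. The observed pairing kept that distance within a subset. These results therefore cannot show whether the difference depended on a library other than Thy. An exact permutation within replicate numbers, used as blocks, gave an adjusted p of 0.0915 for G>T and C>A each, and 16.7% passed. With both Thy libraries left out, the share was 90.3% for G>T and 90.7% for C>A, and the exact permutation test gave an adjusted p of 0.0107 for each, with 66.7% of the 12 changes past the threshold. Among the 32 combinations of C>A or G>T with the neighbouring bases, 1 passed in the 16 libraries, against 6.25% over all combinations of the 12 changes, and 32 passed without the Thy libraries, against 53.1%. All 32 also passed without Thy replicate 2 alone or Thy replicate 1 alone, against 52.1% and 81.2%, with the remaining Thy library again a subset of its own, and 0 did when any other single library was left out. The count of 0 is limited in the same way, since the unpaired place could again fall to Thy replicate 2. Depth moved with part of the order of the subsets and its share in it was not tested. CD24_CD29 cells had the lowest mean coverage, 6569 and 13534 counts in replicates 2 and 1, whereas CD29 cells had the highest, 36822 and 77252.

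The joint level of C>A and G>T was 6.03 times that of G>C and C>G (3.86 to 6.53 across libraries) and 2.91 times that of G>A and C>T (2.46 to 4.79). It was 1.66 times that of T>A and A>T (1.40 to 1.73). These ratios were above 1 in 16 of 16 libraries, and the exact sign-flip permutation test over libraries, two-sided and adjusted over 5 classes, gave 5.09e-05 for each. The level was 2.80 times that of T>G and A>C (0.781 to 3.64) and 1.89 times that of T>C and A>G (0.991 to 3.15), above 1 in 15 of 16 libraries each, with an adjusted p of 6.1e-05 in the exact permutation test. All 5 classes passed, or 100% of those tested. The exception against T>G and A>C was Thy replicate 2, and the exception against T>C and A>G was 6C3 replicate 1.

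The 2 strands carried the change at nearly the same level. G>T over C>A averaged 1.008 across the 16 libraries (geometric mean), from 0.999 to 1.03, with the highest ratio in Thy replicate 2. The ratio was above 1 in 15 of 16 libraries, and the exact sign-flip permutation test, two-sided and adjusted over 6 such pairs of changes, gave 0.000146, with 83.3% of the pairs past the threshold. T>A over A>T, at 0.966 and from 0.871 to 1.17, was the pair that did not pass, with an adjusted p of 0.0794 in the exact permutation test. G>C over C>G averaged 1.21, G>A over C>T 0.681, T>G over A>C 0.893, and T>C over A>G 1.38. The direction of the small G>T excess depended on the mix of neighbouring bases at G and C positions: with equal weight to the 16 trinucleotides, the ratio was 0.980 and above 1 in 1 of 16 libraries. Between subsets the ratio did not pass the exact permutation test (70.7% of the variance, p = 0.0416, adjusted p = 0.226 over 6 pairs), and 0% of the pairs passed.

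Neighbouring bases set apart the members by less than a factor of 2. The trinucleotide, the changed base with the reference base on either side, gave a C>A level of 40.4 ± 8.8 per 10000 in CCC (SD, n = 16), 37.6 ± 9.2 in GCG and 37.6 ± 8.5 in CCG. The lowest C>A levels were 23.1 ± 5.5 in ACA, 24.9 ± 6.0 in TCA and 27.0 ± 6.1 in ACT. G>T was highest in CGG at 38.6 ± 9.5, AGA at 38.1 ± 8.2 and GGG at 37.7 ± 8.8. It was lowest in TGT at 21.8 ± 5.5, TGA at 23.9 ± 5.8 and AGT at 26.5 ± 6.4. Thy replicate 2 was the highest library in each of these trinucleotides, and the lowest trinucleotides recurred from library to library. ACA had the lowest C>A level in 16 of 16 libraries, its reverse complement TGT the lowest G>T level in 16 of 16, and CCC the highest C>A level in 15 of 16. The highest G>T level was less settled, in AGA in 7 libraries, CGG in 7 and GGG in 2.

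Of the 32 trinucleotides of C>A and G>T, 14 lay above the mean of their change and 16 below it in the exact sign-flip permutation test, adjusted over all 12 changes. Over all changes 41.7% lay above and 49% below, so the members were as often set apart as other changes. The spread itself was narrow. The highest trinucleotide was 1.77 times the lowest for G>T and 1.75 times for C>A, against 1.88 to 5.18 for the other changes but T>A, at 1.66. G>T in a trinucleotide and C>A in its reverse complement ran together, with Pearson's r of 0.957 over the 16 trinucleotides (0.908 to 0.958 within single libraries); the points of a pair share their libraries, and the value is a description. The G>T over C>A ratio was lowest in GGT with ACC, at 0.901, and GGA with TCC, at 0.909, and highest in TGC with GCA, at 1.09.

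**Figure D2:**
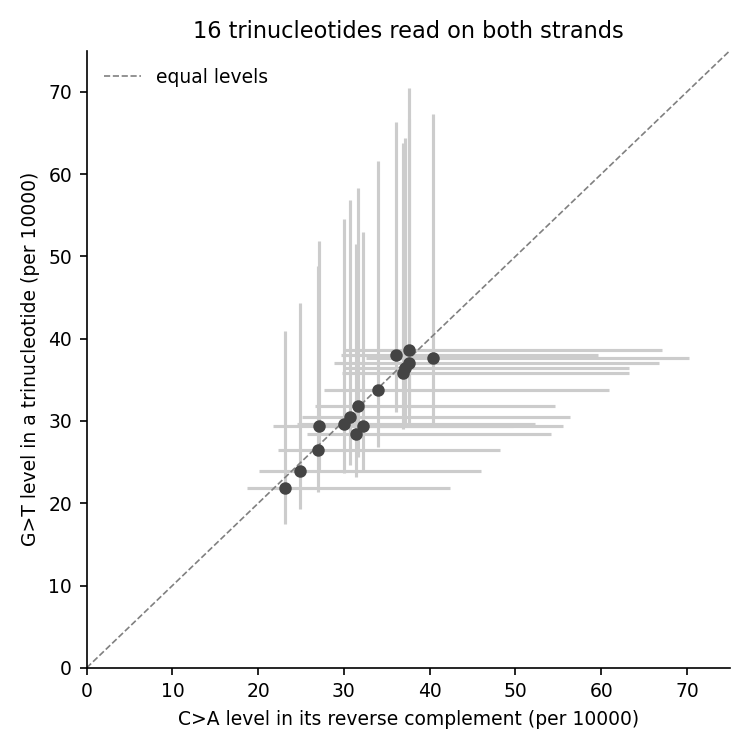
Level of G>T in each of 16 trinucleotides against the level of C>A in its reverse complement, both per 10000 covering counts; points are means over 16 libraries, bars run from the lowest to the highest library, and the dashed line marks equal levels. The points follow the line from about 22 to 40 per 10000, and the long upper ends of the bars are Thy replicate 2.

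Read on the strand that holds the C, an A on either side went with a low level. C followed by A had a C>A level of 26.3 per 10000, against 34.9 for C followed by C, and C preceded by A had 27.2, against 34.7 for C preceded by C. On the same strand G>T gave 25.9 with A after the C, against 34.0 with T or G after it. The base 2 places after the C also parted the levels, at 25.3 for G and 33.3 for A in C>A, and at 26.6 for G and 34.2 for A in G>T. Bases 3 and 4 places away, and 2 places before, changed the level by a factor of 1.06 to 1.19.

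Guanines followed by G on their own strand had a level 1.11 times that of other guanines when read as G>T (1.09 to 1.14 across libraries) and 1.17 times when read as C>A (1.15 to 1.19), in 16 of 16 libraries both times. Guanines followed by C were as high, at 34.8 per 10000 for G>T and 33.9 for C>A, against 34.2 and 34.7 for those followed by G. The lowest were guanines followed by T, at 26.3 for G>T and 27.2 for C>A. By run length, C>A was 28.4 at single C, 33.6 in runs of 2, 34.6 in runs of 3 and 34.9 in longer runs. G>T was 30.8, 32.7, 32.5 and 31.1 in the same order, the last over 35 positions. CpG sites stood 1.10 times above other positions for G>T and 1.06 times for C>A, again in 16 of 16 libraries.

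C>A and G>T was spread more evenly over positions than any other class. The coefficient of variation of the fraction over positions, with the binomial counting variance taken off, averaged 0.381 over the 16 libraries. It was 0.292 in Thy replicate 2 and 0.350 to 0.421 in the others. The coefficient averaged 0.859 for T>A and A>T, 1.06 for G>C and C>G, 1.21 for T>G and A>C, 1.26 for T>C and A>G, and 4.11 for G>A and C>T. It was lower for C>A and G>T in 16 of 16 libraries against each of the 5, and each exact sign-flip permutation test gave 3.05e-05, the smallest value that 16 libraries allow, also after adjustment (100% of 5 passed).

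**Figure D3:**
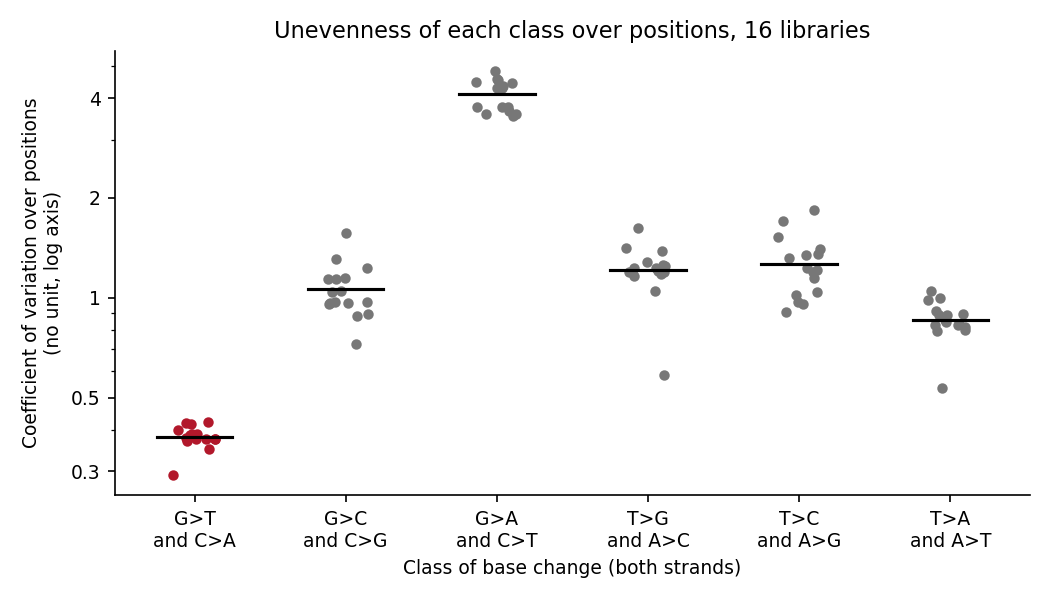
Coefficient of variation of the fraction over positions, on a log axis, for the 6 classes of base change; each point is 1 of 16 libraries and each line the mean. The C>A and G>T points (red) lie between 0.292 and 0.421, below every point of the other classes, and G>A and C>T lie near 4.

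The evenness also showed in the tails. The 1% of positions with the highest fractions held 2.37% to 3.64% of the summed C>A and G>T fraction, against 20.4% to 29.9% for G>A and C>T. Closer classes were T>A and A>T, at 3.91% to 7.71%, and T>G and A>C, at 3.48% to 10.1%. Between 90.8% and 97.6% of the members lay within a factor of 2 of their library's mean, against 16.2% to 38.6% of G>A and C>T alleles. For T>A and A>T alleles this share was nearer to that of the members, at 78.4% to 90.5%. Alleles without a single count made up at most 0.0334% of the members in any library. What unevenness there was recurred from library to library: the fractions of the 5989 members correlated between libraries with a median Pearson's r of 0.804, from 0.645 to 0.915 over pairs of libraries. The median was 0.822 within a replicate number and 0.8002 between numbers, whereas G>A and C>T had 0.610 and 0.364. The class with a higher median over all pairs of libraries was T>G and A>C, at 0.842. The trinucleotide held 20.6% of the variance of the members over positions, against 2.52% to 10.3% for the other classes.

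By gene, levels in the larger genes and regions differed little from what the trinucleotides of each would give. The small transfer RNA genes differed more, from 0.774 times that in TrnV, with 27 members, to 1.54 times in TrnC, with 24. Among genes and regions with at least 50 C or G positions, the highest mean levels were 36.4 per 10000 in ND6, the complex I gene on the opposite strand, 34.8 in ATP8 of the ATP synthase and 34.1 in the control region. Against the mean of their trinucleotides, these stood at 1.16, 1.16 and 1.10, above 1 in 16 of 16 libraries each. The lowest were the cytochrome c oxidase genes COX1 at 27.8 and COX3 at 28.7 and the complex I gene ND4L at 28.1, which stood at 0.891, 0.943 and 0.894, and below 1 in 16 of 16 libraries. By group, the complex IV genes had 28.6 per 10000 and cytochrome b, the complex III gene, 30.1. The complex I genes had 31.7, the complex V genes 31.8, the ribosomal RNA genes 31.5, and the transfer RNA genes 33.0.

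By predicted effect on protein, the level was 29.1 per 10000 for members that create a stop codon, 30.6 for missense members and 32.3 for synonymous members. Relative to the trinucleotide mean, the 371 members that create a stop codon stood at 0.998 (0.972 to 1.01 across libraries). The 3367 missense members stood at 0.986 (0.978 to 0.993) and the 488 synonymous members at 0.963 (0.946 to 1.005). The order of the levels was thus turned round once the trinucleotides were taken into account, and the difference was not tested. Members outside protein genes stood at 1.04, above 1 in 16 of 16 libraries.

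In windows of 500 positions, the mean level ran from 26.6 to 36.4 per 10000 in 32 of 33 windows, and was 49.8 in the last one, which begins at position 16001 and runs to the end of the reference. The window before it, MT:15501-16000, also in the control region, was the lowest. Within the control region stretch shown above, G>T averaged 152 per 10000 at 4 positions and C>A 97.8 at 14 positions, 5.04 and 3.23 times the level outside it. The bounds of the stretch were drawn around its highest members, so a raised level of these changes inside it was set by that choice. All 4 G positions were among the 25 highest members. Other changes, which did not enter that choice, did not share the raised level throughout. T>A stood at 7.34 times and G>C at 3.55 times the level outside, C>G at 1.37 times, and C>T at 0.254 times. Coverage of the stretch was 0.612 times the library mean (0.570 to 0.662 across libraries).

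C16130A had the highest mean fraction over the 16 libraries, with 2.17% ± 0.20 in replicate 2 and 2.17% ± 0.18 in replicate 1 (SD, n = 8 each), against a mean of 0.231% for its trinucleotide. G16115T followed with 1.97% ± 0.20 in replicate 2 and 2.07% ± 0.13 in replicate 1. C16121A had 1.95% ± 0.15 and 1.97% ± 0.17 in the same order. C16139A had 1.57% ± 0.31 in replicate 2 and 1.46% ± 0.13 in replicate 1, and G16136T 1.47% ± 0.18 and 1.45% ± 0.22. C954A in mt-Rnr1, described below with the replicate numbers, was higher than all of these in replicate 1 but not in replicate 2. These 5 control region members were at 1% or more in 16 of 16 libraries, and their replicate ranges overlapped throughout. At position 16130 the other non-reference bases were rarer, at 0.0480% for G and 0.0196% for T.

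The stretch at TrnN and TrnC was raised less. C>A averaged 64.9 per 10000 at 12 positions and G>T 57.5 at 13, 2.12 and 1.86 times the level outside it, at a coverage of 0.916 times the library mean. The bounds here too were drawn around the highest members, so a raised level of C>A and G>T inside them followed from that choice. Other changes were raised in this stretch as well, T>G 2.12 times, C>G 1.73 times and G>C 1.68 times, whereas C>T stood at 0.255 times the level outside. G>A averaged 2.28 times but ran from 0.843 to 6.02 across libraries, so it was not raised in every library. Its highest member was C5157A, with a mean of 1.15% (0.950% to 1.54% across libraries). Of the 20 members that were at least 2 times their trinucleotide mean in 16 of 16 libraries, 10 lay in the control region stretch and 6 in this one. One more high member, C13241A in the complex I gene ND5, lay outside both, at 1.18% (1.02% to 1.41%).

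**Figure D4:**
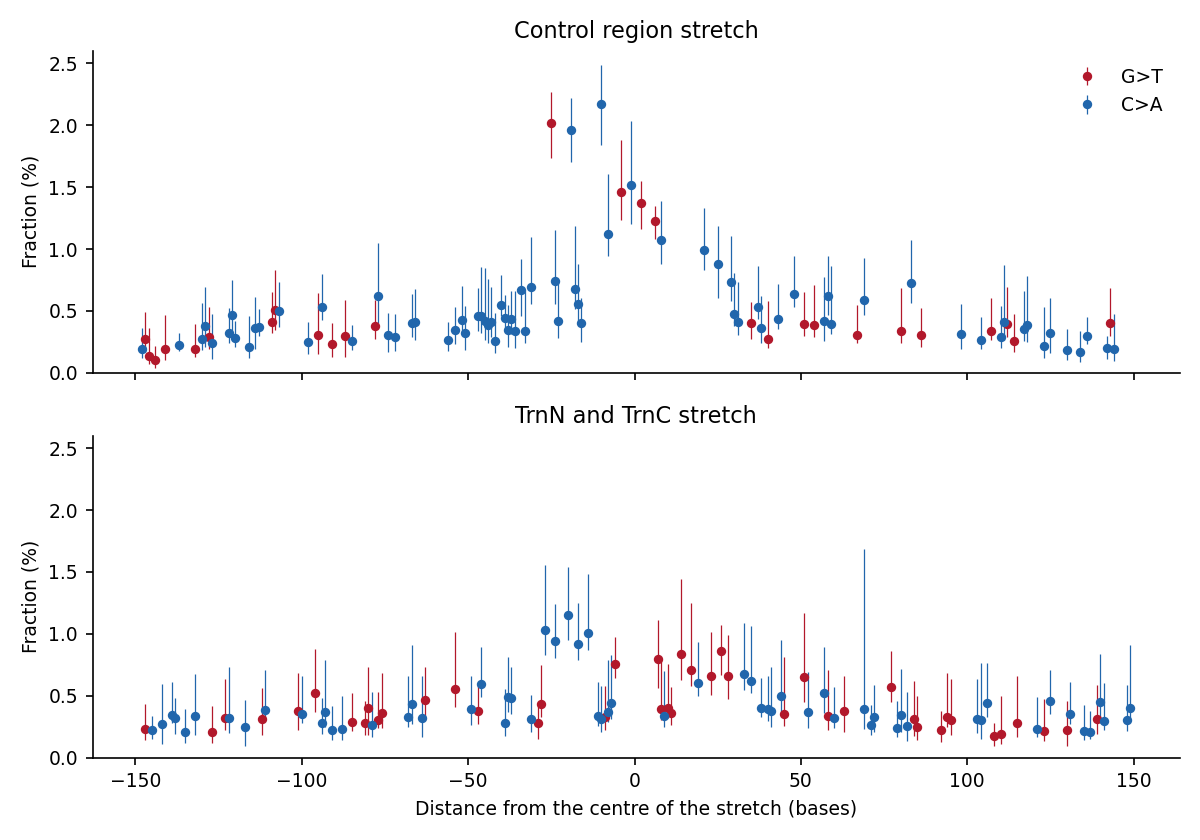
Fraction of G>T (red) and C>A (blue) alleles, in percent, by distance in bases from the centre of each stretch; points are means over 16 libraries and bars run from the lowest to the highest library. The control region stretch (top) reaches 2.17% near its centre and the TrnN and TrnC stretch (bottom) 1.15%, while most members around them lie below 0.5%.

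At the low end, G1T and C16297A, at the ends of the linear reference, had mean fractions of 0.00101% and 0.00846%. Away from the ends, the lowest member was C15944A in the control region, at 0.103% (0.0559% to 0.158%).

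Over all libraries, 132 of 5989 members, 72 C>A and 60 G>T, reached 1% with at least 5 counts in at least 1 library, against 3487 of the 48897 alleles of all changes. In Thy replicate 2, 2178 T>G and A>C alleles were at 1% or more, against 13 to 36 in each other library. Much of the 3487 thus came from this library and class. The members at 1% or more numbered 96 there and 11 to 34 in each other library. Of the 132 members, 107 reached 1% in exactly 1 library, 74 of them in Thy replicate 2 and 18 in CD24_CD29 replicate 2, the shallowest library. A stricter rule, 1% in 1 library and under 0.5% in the other 15, left 10 members, 4 of them in Thy replicate 2. The highest there was G2443T in the 16S ribosomal RNA gene mt-Rnr2, at 1.44% (exact 95% interval 1.26% to 1.64%), against at most 0.372% elsewhere. C6606A in COX1 reached 1.51% in Thy_6C3 replicate 2 (1.33% to 1.71%), against at most 0.498% elsewhere. C11147A in ND4 reached 1.39% in Thy_6C3 replicate 1 (1.24% to 1.55%), and G10573T in ND4 reached 1.27% in CD24_CD29 replicate 2 (1.01% to 1.58%). All but the first are predicted missense changes.

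Between replicate numbers, 4 of 5987 members tested differed in edgeR's quasi-likelihood test with Benjamini-Hochberg adjustment over all 47028 alleles, 1 higher and 3 lower in replicate 2. Over all alleles 0.425% differed, 0.225% higher and 0.2% lower in replicate 2. C954A was at 0.370% to 0.929% in the replicate 2 libraries (median 0.538%) and at 1.65% to 3.17% in the replicate 1 libraries (median 2.98%). The ranges did not overlap, and every replicate 1 library, from every subset, was high. Its log2 ratio of replicate 2 over replicate 1 was -2.37, with an adjusted p of 3.68e-06 (0.000715 with subset as a block). mt-Rnr1 encodes the RNA of the small mitochondrial ribosomal subunit.

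C4279A, a predicted missense change in the complex I gene ND2, was at 0.194% to 0.373% in replicate 2 (median 0.239%) and at 0.699% to 1.66% in replicate 1 (median 1.19%). The ranges again did not overlap, and the edgeR log2 ratio was -2.14 with an adjusted p of 2.01e-05. C8106A, a predicted missense change in the ATP synthase gene ATP6, differed in the opposite direction, at 0.690% to 2.07% in replicate 2 (median 1.30%) and 0.305% to 0.518% in replicate 1 (median 0.418%), with a log2 ratio of 1.63 and an adjusted p of 0.000488 in edgeR. C2840A in ND1, which creates a stop codon and is named after its values were seen, had 0.140% to 0.443% in replicate 2 and 0.388% to 0.973% in replicate 1. Its ranges overlapped, and its adjusted p of 0.041 in edgeR became 0.215 with subset as a block. Leaving out 1 library at a time, edgeR called 3 or 4 members.

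**Figure D5:**
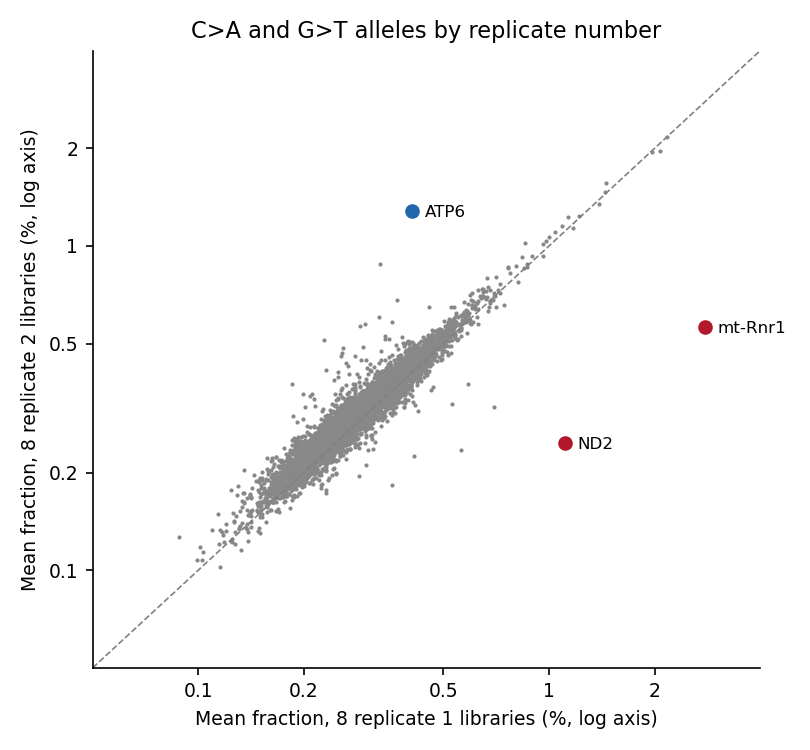
Mean fraction of each C>A and G>T allele in the 8 replicate 2 libraries against that in the 8 replicate 1 libraries, in percent on log axes; the dashed line marks equal fractions, and the 2 alleles at the ends of the linear reference fall below the axes. Most alleles lie on the line, and the 3 larger points, in ATP6 above it and in mt-Rnr1 and ND2 below it, are those with the largest edgeR ratios among the 4 that passed.

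Between subsets, 0 of 5987 members differed in edgeR's quasi-likelihood test, as did 0% of all alleles. The test had little power. In simulated data with alleles changed in CD24_CD29 cells alone, it recovered 0 of 100 at 2-fold and 2 of 100 at 4-fold. The result of 0 therefore cannot show that no allele differed. At an unadjusted p under 0.05 there were 12 members of 5987, or 0.2%, against 2548 of all 47028 alleles. The members' share was below what this threshold would give without any difference. The test was thus strict for these alleles, and the contrast is not a result about them. DESeq2 called 8 members, or 0.134% of those tested, against 1.62% of all alleles. Leaving out 1 library changed this in 1 case: without Thy replicate 1, edgeR called 156 members, against 22.1% of all alleles, with Thy replicate 2 then alone in its subset and assumed to vary like the rest. The member with the smallest edgeR p was C3455A in ND1, with an unadjusted p of 0.00916 and an adjusted p of 0.76 (0.00729 with DESeq2). Its fractions were 0.681% and 0.521% in CD24_CD29 cells, 0.546% and 0.659% in Thy cells, and 0.477% and 0.530% in Thy_6C3 cells, replicate 2 given before replicate 1. In the other 5 subsets it was at 0.211% to 0.317%. C3455A was therefore higher in those 6 libraries than in the other 10, in the subsets that also had the highest C>A level. In Thy replicate 2 its 0.546% was close to the general C>A level of its trinucleotide ACG there, 52.3 per 10000. In Thy replicate 1 the ACG level was 32.2 per 10000, well below the 0.659% of C3455A. C>T at the same position was more frequent, with a mean of 0.548% over all libraries, against 0.379% for C3455A.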

How the data were processed

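Mitochondrial DNA of 8 sorted femur subsets, 2 libraries each, was read by ATAC-seq. A table of counts per allele and a table of coverage per position were deposited by the authors, each with 1 column per library. The tools named, per the submitters' processing notes, are BWA 0.7.17, cutadapt 2.10 and bcl2fastq 2.20, and GRCm38 and mm10 are named as builds with no role. Of filters on base quality, duplicates and strand, the settings were not given in the sources used here.

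A fraction was the count over the coverage, and a level its mean over positions with the reference base. Exact permutation tests ran over libraries in Python 3.11.15 with numpy 2.4.6, scipy 1.17.1 and numba 0.67.0, with Benjamini-Hochberg adjustment. Intervals are exact Clopper-Pearson at 95% and cover counting error only. Single alleles with a total count of 80 or more were tested with edgeR 4.0.16 on paired non-reference and reference counts in R 4.3.3, with DESeq2 1.42.0 as an alternative. Tested on simulated data for the replicate comparison, edgeR recovered 22 of 100 alleles changed 2-fold and 99 of 100 changed 4-fold. There were 7 false calls among the alleles left unchanged, of 47028 in all. For the subset comparison it recovered 0 and 2 of 100.

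Alleles were named by rule: the 5 highest in each replicate number, the highest of each library that is at 1% there and under 0.5% elsewhere, and per edgeR test the 3 largest ratios that pass or else the smallest p. Contexts and genes were the 3 highest and 3 lowest. Every allele of the changes was taken, but that these changes and lists would be described was settled with earlier results of these data known. Gene limits are those of RefSeq on GRCm38.p6, and effects on protein were read with the vertebrate mitochondrial code in Biopython 1.88. Alternatives were the level's definition, coverage and count minimums, blocks, and leaving out libraries.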

Additional observations from a re-analysis of the deposited data

How the results depend on the processing

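The share of the level's variance between subsets passed the exact permutation test for G>T, at 70.2%, when alleles of 1% or more were left out, and for G>T and C>A, at 90.3% and 90.7%, without both Thy libraries. Leaving out 1 library gave 67.5% to 97.7% for G>T and 67.2% to 97.7% for C>A. Trinucleotides of C>A and G>T that differed between subsets numbered 1, and 0 to 32 with 1 library left out. The count of 0 came from leaving out a library other than Thy, where the test could hardly pass, as described above. G>T over C>A turned to a log2 of -0.0286 with equal weight to trinucleotides. The log2 ratio of G>T in CGA to the mean of its change, not past the threshold, turned to -0.00140 by the median over positions and ran from -0.00213 to 0.00623 with 1 library left out. DESeq2 called 8 members between subsets, and edgeR 0 to 156 with 1 library left out. The causes were not tested.

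Over all tested alleles, same-numbered libraries of different subsets had correlations of 0.0976 to 0.437 in their deviations. These were positive in all 28 pairs of subsets and above 0.1 in 27. Over the C>A and G>T alleles alone they were weaker, at 0.0285 to 0.154, and above 0.1 in 13 of 28. This hints that libraries of a number share something, but the labels do not say so. Over all alleles 1 pair missed the 0.1 asked of every pair, so the main tests did not pair the libraries. With a block for replicate number, the shares were 70.1% for G>T and 69.9% for C>A, with an adjusted p of 0.0915 in the exact permutation test. Of the C>A and G>T trinucleotides, 2 differed between subsets, against 12% over all combinations of the 12 changes. With subset as the block, 3 members differed between replicate numbers, against 0.366% of all alleles. In an alternative chosen after seeing the data, the block without both Thy libraries gave 94.4% and 94.7%. Depth limited alleles under the count-0 limit.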

Other observations

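The 8 members that DESeq2, but not edgeR, called between subsets are described here by their fractions, and they were chosen after their values were seen. In 6 of them both Thy libraries were the highest of the 16. C13436A in ND5, a synonymous change, had 0.741% and 0.789% in Thy replicates 2 and 1, against at most 0.441% elsewhere. C11042A in ND4, which creates a stop codon, had 0.675% and 0.680%, against at most 0.409%. G7651T in COX2, a missense change, had 0.707% and 0.636%, against at most 0.359%. The others of the 6 were C6333A and G6214T in COX1 and G4292T in ND2, all missense. C3455A in ND1 was highest in CD24_CD29 replicate 2, and C6422A in COX1 in Thy_6C3 cells, at 0.703% and 0.470% in replicates 2 and 1. The DESeq2 adjusted p, with Benjamini-Hochberg adjustment, ran from 0.000799 for C13436A to 0.0422 for G4292T, whereas edgeR gave 0.76 to 0.812. In all of the 6 but G7651T, the fraction was higher in Thy replicate 1 than in Thy replicate 2. The general level ran the other way, at 32.5 per 10000 in Thy replicate 1 and 55.8 in Thy replicate 2. The part of the general level in these fractions was not tested.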
